A study of Mus musculus with 24 samples.

Results

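Retinoic acid changes gene expression by binding retinoic acid receptors (RARs), which sit on DNA with retinoid X receptors and switch from repression to activation when the ligand binds. Genes next to such sites can respond quickly, while genes that need the products of early targets, or a change in cell state, can respond late. P19 is a mouse embryonal carcinoma cell line that is known to give neurons and glia, or other cell types, when retinoic acid is added under different culture conditions. The genes described here are those that stood high after 72 h of all-trans retinoic acid (ATRA) and at no earlier time of it.

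The study measured P19 cells, grown as a monolayer on gelatine, with 24 Affymetrix Mouse Gene ST arrays. ATRA at 1 µM, the RARα agonist BMS753 at 1 µM, the RARβ agonist BMS641 at 0.1 µM and the RARγ agonist BMS961 at 0.1 µM each had 1 array at 2, 6, 24, 48 and 72 h. The control was EtOH (ethanol), whose 4 arrays have no time in their labels, and all groups share the cell line, medium and plates. ATRA and BMS753 share a dose, as do BMS641 and BMS961, and the 2 pairs differ in dose. The labels do not say whether arrays come from separate cultures, so the spread between them is possibly technical. In bulk RNA, fewer cells of a type and less RNA per cell cannot be told apart.

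Members were chosen from the measured values. For each gene with 1 symbol, the probe set with the highest mean was taken, and its log2 intensity minus the mean of the 4 EtOH arrays was read in each ATRA array. A gene was a member where this difference was at least 1.5 at 72 h and under 0.5 at each of 2, 6, 24 and 48 h. This gave 73 members of 19938 genes. At 72 h of ATRA 591 genes reached 1.5, and the other 518 of them had already reached 0.5 at an earlier time. By the same shape 27 genes were found with BMS753, 0 with BMS641 and 0 with BMS961. The ATRA values below therefore describe the choice and carry no test, and all of them at 72 h come from 1 array.

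Array medians lay between 6.502 and 6.677 log2 units over all probe sets, and the ATRA 72 h array had the highest. The 35 measured pluripotency genes averaged 7.00 at 72 h of ATRA and 7.40 at 72 h of BMS753, against 8.50 to 8.55 in the EtOH arrays, where such genes mark the undifferentiated carcinoma cell. The ATRA 72 h array held more genes at least 2-fold above EtOH than any other array, 1062, against 601 at 72 h of BMS753 and 673 at 48 h of ATRA.

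The members formed a mixed group of transcription factors, secreted signals, matrix proteins, receptors, adhesion proteins and genes of neurons. Their ATRA 72 h difference from EtOH ranged from 1.51 to 3.79 on the log2 scale, with a median of 1.86. It was at least 2 in 30 members and at least 3 in 5. In 72 of the 73 members the ATRA 72 h array was the highest of the 24 arrays, and the exception, the long noncoding RNA Gm32061, was higher at 72 h of BMS753. The log2 intensity of the members in EtOH had a median of 5.99, against 7.13 over all genes, although intensities of different probe sets do not rank RNA amounts. Their SD over the EtOH arrays had a median of 0.0757 log2 units.

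The rule fixes a step of over 1 between 48 and 72 h of ATRA. The 72 h array stood 1.06 to 3.70 log2 units above the 48 h array, with a median of 1.73. The highest earlier ATRA time was 48 h in 50 members, and in 31 members the highest earlier difference was at least 0.3. These values were used by the rule and carry no test. The median difference from EtOH was 0.22 at 48 h and -0.01 at 24 h.

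**Figure D1:**
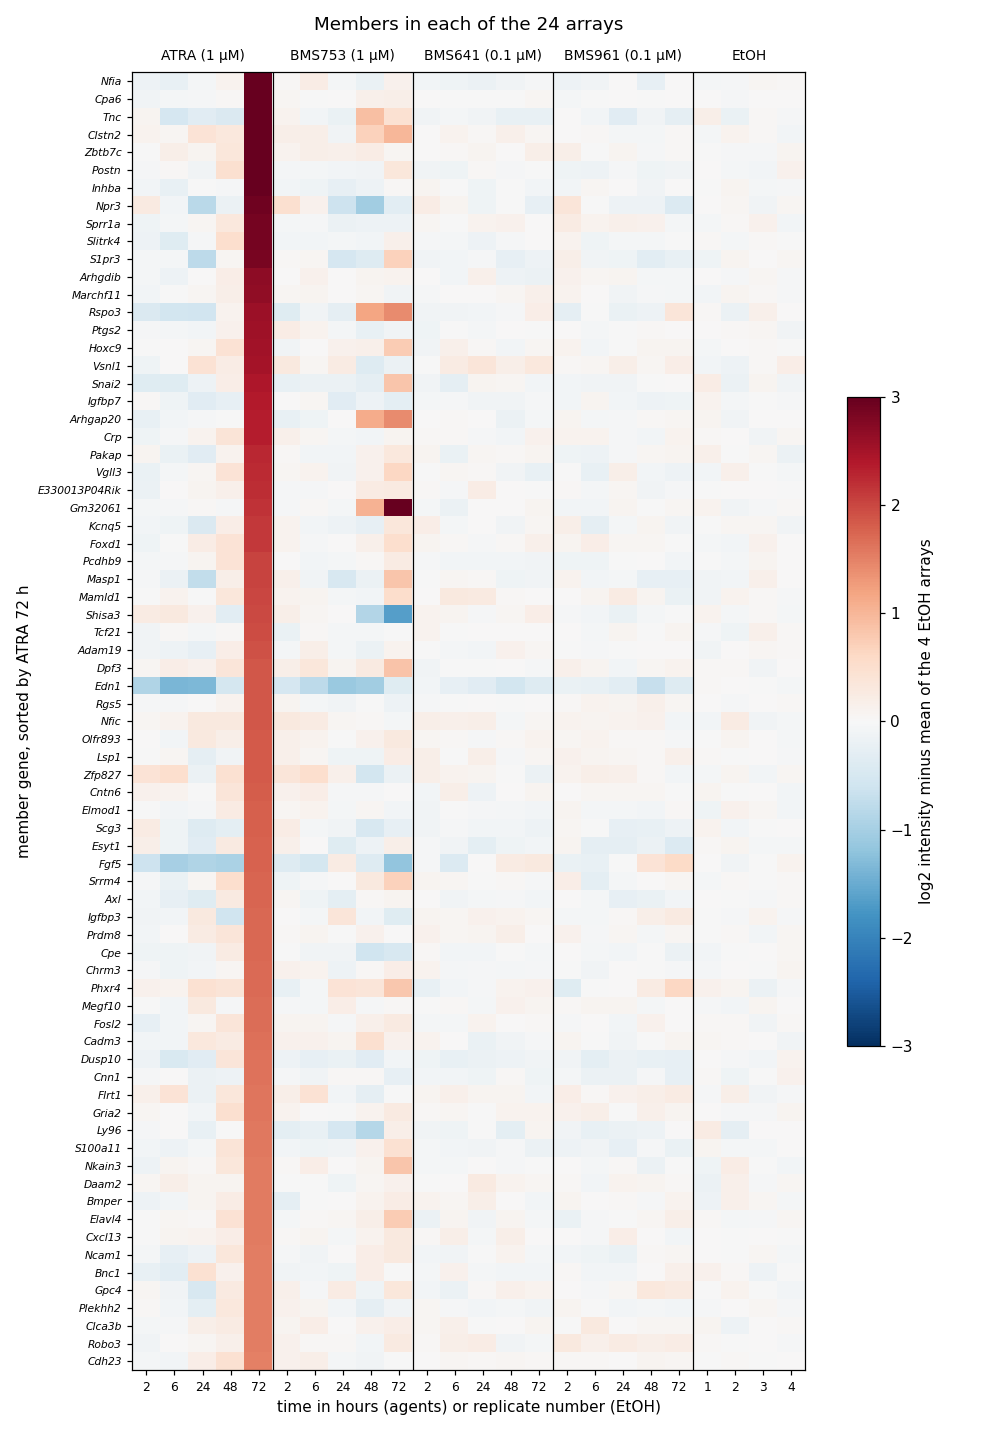
Each row is a member and each column an array, with ATRA, BMS753, BMS641 and BMS961 in order of time and the EtOH arrays on the right; colour is the log2 intensity minus the mean of the 4 EtOH arrays, with values beyond 3 shown as 3. The ATRA 72 h column is red throughout by choice of the members, and in the BMS753 72 h column 56 of 73 members lie within 0.5 of EtOH. Most of all genes lie within 0.5 there too.

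The rule's thresholds cut through a continuous range of values. Just inside the 72 h threshold were Cdh23 at 1.51, Robo3 at 1.53 and Clca3b at 1.53, and just outside were Fli1 at 1.499, Hoxa9 at 1.47 and Ccser1 at 1.46. At the limit for earlier times, Zfp827, Srrm4 and Slitrk4 were inside, with highest earlier differences of 0.498, 0.498 and 0.497. Txnip at 0.51, Tmem255a at 0.51 and Prickle2 at 0.51 were just outside. Of the 3 members with a second probe set, S100a11 gave nearly the same ATRA 72 h value with both (1.57 and 1.59), and Nfia gave 3.79 with the kept and 1.96 with the other. The second probe set of Marchf11, 4.42 above EtOH at 72 h, was already 0.89 above it at an earlier time and would not have met the rule. Pcdhb9, Olfr893 and Clca3b belong to families of near-identical genes, so their signal may be shared with relatives.

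Transcription factors and cofactors were the largest role, with 14 members. Nfia, a nuclear factor I protein that promotes the formation of glia in the spinal cord, had the highest ATRA 72 h difference of all members. Its log2 intensity was 5.53, 5.46, 5.62, 5.77 and 9.47 at 2, 6, 24, 48 and 72 h of ATRA. At the same times of BMS753 it was 5.72, 5.90, 5.62, 5.48 and 5.81, and the EtOH arrays had 5.63, 5.63, 5.73 and 5.71. The ATRA 72 h array thus stood alone, 13.9-fold above the EtOH mean, while BMS753 at 72 h lay close to the EtOH arrays. Its relative Nfic was also a member. Zbtb7c, a zinc finger protein with a BTB domain, had 9.67 at 72 h of ATRA, 6.68 at 72 h of BMS753 and 6.58 to 6.71 in EtOH.

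Further members of this role include genes known from mesenchyme and neural crest, among others. Snai2 (Slug), a repressor of E-cadherin that marks migrating neural crest, had 5.88, 5.88, 6.10, 6.45 and 8.68 over the ATRA times. It had 6.02, 6.06, 6.07, 5.97 and 7.08 over the BMS753 times and 6.46, 6.06, 6.32 and 6.14 in EtOH. Its 72 h arrays were the highest with both agents. Tcf21, a bHLH factor of mesenchyme around developing organs, had 7.41 at 72 h of ATRA and 5.44 at 72 h of BMS753, against 5.31 to 5.59 in EtOH. Hoxc9, a homeobox gene of the trunk, had 8.34 at 72 h of ATRA and 6.58 at 72 h of BMS753, against 5.76 to 5.84 in EtOH. Dpf3, a subunit of the BAF chromatin remodelling complex, had 8.31 and 7.29 at 72 h of ATRA and of BMS753, against 6.34 to 6.48 in EtOH. Prdm8, a PRDM-family repressor that acts in neuronal development, had 7.77 and 6.06, against 5.98 to 6.11 in EtOH. Foxd1, Vgll3, Mamld1, Zfp827, Fosl2 and Bnc1 complete the role.

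Secreted ligands and proteins that bind or modify them numbered 9, counting Shisa3, whose family acts on receptors and which was placed here. Inhba, which encodes the subunit of activin A, had 5.78, 5.63, 5.85, 5.81 and 8.85 over the ATRA times. At the BMS753 times it had 5.78, 5.72, 5.60, 5.70 and 5.88, and 5.79 to 5.94 in EtOH. Rspo3, an R-spondin that strengthens Wnt signalling, had 6.05, 5.94, 5.91, 6.58 and 9.05 over the ATRA times. With BMS753 it had 6.11, 6.37, 6.22, 7.67 and 7.89, against 6.50, 6.30, 6.62 and 6.48 in EtOH. Inhba was thus high in the ATRA 72 h array alone, whereas Rspo3 was also above all EtOH arrays at 48 and 72 h of BMS753, and at those times only among the BMS753 arrays.

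Of this group Edn1, Fgf5 and Shisa3 lay below and then above EtOH in the course of ATRA or stood on opposite sides of EtOH with the 2 agents. They were not alone in this. Rspo3 was also below every EtOH array at 2, 6 and 24 h of ATRA, and Igfbp3 and Igfbp7 stood on opposite sides at 72 h of the 2 agents. Edn1, the vasoconstrictor endothelin-1, had 6.31, 5.84, 5.86, 6.70 and 9.08 over the ATRA times, against 7.26, 7.23, 7.20 and 7.16 in EtOH. It was below every EtOH array up to 48 h and above them all at 72 h. Fgf5, a fibroblast growth factor that marks the epiblast after implantation, had 7.64, 7.29, 7.38, 7.32 and 10.04 over the ATRA times and 7.88, 7.75, 8.52, 7.90 and 7.09 over the BMS753 times. The EtOH arrays had 8.28, 8.17, 8.26 and 8.38, so the ATRA arrays before 72 h lay below EtOH and the BMS753 72 h array did too. Shisa3, of a family that in Xenopus holds back the maturation of Wnt and FGF receptors, had 8.67, 8.71, 8.55, 8.09 and 10.40 over the ATRA times. Over the BMS753 times Shisa3 had 8.60, 8.47, 8.43, 7.55 and 6.76, against 8.51, 8.35, 8.44 and 8.36 in EtOH. At 72 h the ATRA array was the highest of all arrays for Shisa3 and the BMS753 array the lowest of those given.

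The insulin-like growth factor binding proteins Igfbp3 and Igfbp7 were members as well. Igfbp3 had 10.10 at 72 h of ATRA and 8.01 at 72 h of BMS753, against 8.33 to 8.47 in EtOH, and Igfbp7 had 9.30 and 6.63, against 6.87 to 7.03 in EtOH. Both BMS753 values lay below all EtOH arrays. Bmper, a BMP-binding protein, and Cxcl13, a B-cell chemokine, are the other two.

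The matrix and cell surface role held Tnc, Postn, Gpc4 and Adam19. Tenascin-C (Tnc), a matrix glycoprotein of migrating and remodelling tissue, had 6.99, 6.41, 6.58, 6.48 and 10.16 over the ATRA times. With BMS753 it had 7.03, 6.83, 6.72, 7.82 and 7.39, against 7.09, 6.73, 6.96 and 6.89 in EtOH, so its highest BMS753 array was at 48 h, not 72 h. Periostin (Postn), a matrix protein of mesenchyme, had 7.92 at 72 h of ATRA and 5.26 at 72 h of BMS753, against 4.84 to 5.06 in EtOH. Gpc4 is a heparan sulphate proteoglycan and Adam19 a membrane protease.

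Receptors numbered 7. Npr3, the clearance receptor of natriuretic peptides, had 7.63, 7.28, 6.54, 7.18 and 10.26 over the ATRA times. Over the BMS753 times it had 7.84, 7.48, 6.74, 6.32 and 7.04, against 7.36, 7.41, 7.24 and 7.41 in EtOH. Npr3 was low at 24 h with both agents, and at 72 h it was high with ATRA only. Gria2, a subunit of AMPA glutamate receptors, had 5.64 and 4.32 at 72 h of ATRA and of BMS753, against 4.00 to 4.12 in EtOH. The muscarinic receptor Chrm3, the sphingosine 1-phosphate receptor S1pr3, the receptor tyrosine kinase Axl, the engulfment receptor Megf10 and the Toll-like receptor 4 partner Ly96 were the others.

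Genes of neurons and of cell adhesion made up 17 members in 2 roles. Among the 9 adhesion and guidance genes, Clstn2, a calsyntenin of synapses, had 6.05, 6.02, 6.36, 6.28 and 9.10 over the ATRA times. With BMS753 Clstn2 had 6.14, 6.14, 5.84, 6.64 and 6.95, against 5.90, 6.06, 5.98 and 5.88 in EtOH, and was above all EtOH arrays at 48 and 72 h. Slitrk4, a synaptic membrane protein, had 9.20 and 6.49 at 72 h of ATRA and of BMS753, against 6.27 to 6.38 in EtOH. Ncam1, the neural cell adhesion molecule, had 9.83 and 8.59, against 8.23 to 8.34 in EtOH. Robo3, a guidance receptor of commissural axons, had 6.92 and 5.66, against 5.36 to 5.42 in EtOH. Cntn6, Pcdhb9, Cadm3, Cdh23 and Flrt1 were the others.

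The 8 other genes of neurons and secretory granules split at 72 h of BMS753. Elavl4 (HuD), an RNA-binding protein of neurons, had 7.10 at 72 h of ATRA and 6.31 at 72 h of BMS753, against 5.49 to 5.60 in EtOH. Nkain3, a protein that binds a sodium pump subunit, had 7.39 and 6.66, against 5.70 to 6.04 in EtOH. These were above all EtOH arrays with both agents. Cpe, carboxypeptidase E of secretory granules, had 10.53 and 8.34, against 8.74 to 8.89 in EtOH, and secretogranin III (Scg3) had 7.25 and 5.21, against 5.38 to 5.56 in EtOH. These were above EtOH with ATRA and below it with BMS753. Vsnl1, a neuronal calcium sensor, had 8.14 and 5.47, against 5.50 to 5.84 in EtOH. Kcnq5, Elmod1 and Srrm4 were the others.

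Actin, GTPase and contractile genes numbered 9. Arhgap20, a GTPase-activating protein, had 5.41, 5.56, 5.59, 5.61 and 7.99 over the ATRA times. With BMS753 it had 5.41, 5.51, 5.65, 6.76 and 7.05, against 5.72, 5.53, 5.65 and 5.64 in EtOH. It was high already at 48 h of BMS753, while the rule kept members under 0.5 at 48 h of ATRA. Cnn1 (calponin), a contractile protein of smooth muscle, had 10.13 and 8.25 at 72 h of ATRA and of BMS753, against 8.36 to 8.62 in EtOH. Arhgdib, Lsp1, Rgs5, S100a11, Pakap, Daam2 and Plekhh2 were the others.

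The 6 enzymes and plasma proteins included Cpa6, an extracellular carboxypeptidase, with 4.30, 4.36, 4.37, 4.44 and 8.06 over the ATRA times. Cpa6 had 4.46, 4.40, 4.42, 4.55 and 4.59 over the BMS753 times, against 4.36 to 4.42 in EtOH, and was 12.6-fold above the EtOH mean at 72 h of ATRA. Masp1, a protease of the lectin pathway of complement, had 8.50 at 72 h of ATRA and 7.32 at 72 h of BMS753, against 6.39 to 6.65 in EtOH. Ptgs2 (cyclooxygenase 2), the acute-phase protein gene Crp, the phosphatase Dusp10 and the ubiquitin ligase Marchf11 were the others. Of the 7 members with no role assigned, Sprr1a, a protein of the cornified envelope that is also known from regenerating axons, had 8.52 at 72 h of ATRA and 5.51 at 72 h of BMS753, against 5.56 to 5.77 in EtOH. Phxr4 had 7.07 and 6.18, against 5.19 to 5.50 in EtOH.

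**Figure D2:**
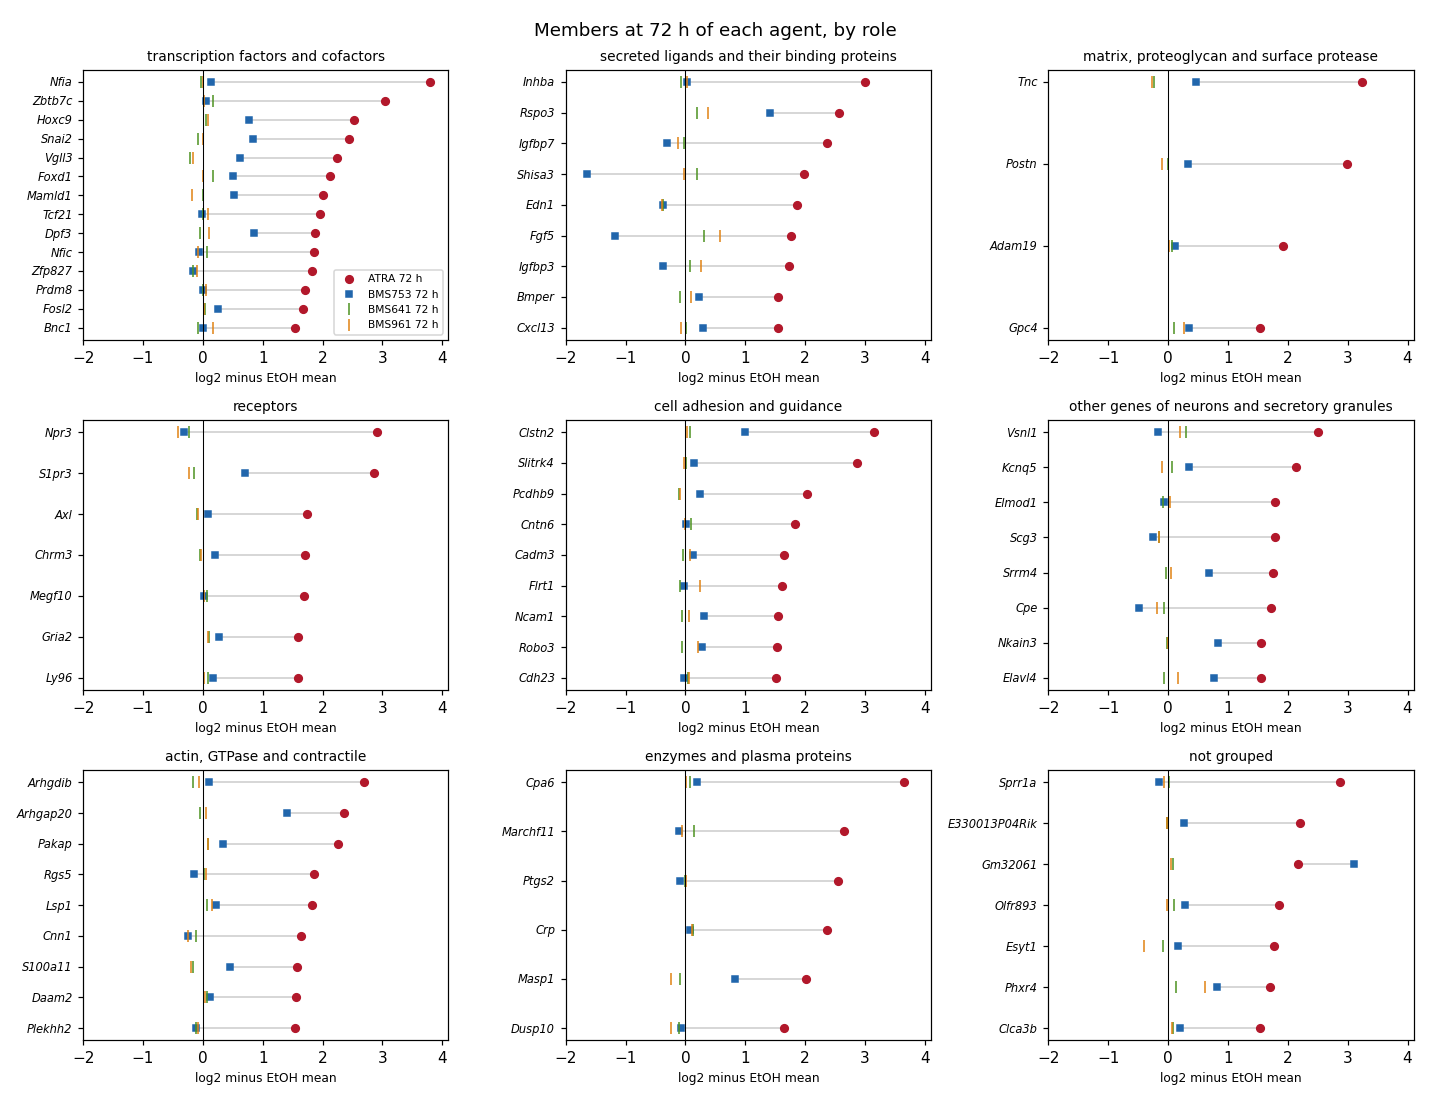
Each panel is a role and each row a member, with the log2 intensity minus the mean of the 4 EtOH arrays on the horizontal axis at 72 h of ATRA (red circles), BMS753 (blue squares), BMS641 (green bars) and BMS961 (orange bars), 1 array each. The blue squares lie near 0 in most rows, to the right for Rspo3 and Arhgap20, to the left for Shisa3 and Fgf5, and beyond the red circle for Gm32061.

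Because the members stood high together in 1 array, their promoters were read for shared letters. Of the 73 members 56 had a promoter in the RefSeq table (GRCm38.p6), which gives 250 bases before the start of the gene and 50 after it. The search window was the 250 bases before the start, without the 50 after it, and GC content was taken from the same bases. Motifs were searched on both strands of each window, and the same was done for 15563 measured genes. TATAAA, the letters of the TATA box, was anywhere in the window of 8 member promoters (14.3%), against 11.2% of all. A retinoid receptor element of the DR5 type was in 1 (1.79% against 0.251%) and the DR2 type in 0 (0.0% against 0.193%). The CArG box of serum response factor was in 0 (0.0% against 1.25%). The E-boxes CAGCTG and CAGATG were in 7 and 5 (12.5% against 12.2% and 8.93% against 12.0%), and the GC box GGGCGG was in 25 (44.6% against 46.1%). The median GC content was 59.0% in member promoters and 56.4% in all. The windows below end at the base before the gene's start. They are shown for the member with the DR5 match and for 2 members with TATAAA among those highest at 72 h of ATRA. Arhgap20, which was also high with BMS753, is shown too. Capitals mark the DR5 match and TATAAA. The Sprr1a window is chr3:92485882-92486006, minus strand, and its DR5 match contains TGAGTCA, the letters of an AP-1 site. The Tnc window is chr4:64047016-64047145, minus strand, that of Inhba chr13:16011751-16011850, plus strand, and that of Arhgap20 chr9:51765251-51765350, plus strand.
Sprr1a: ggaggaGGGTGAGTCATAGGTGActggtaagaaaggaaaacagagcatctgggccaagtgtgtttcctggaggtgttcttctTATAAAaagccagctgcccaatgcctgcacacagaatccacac
Tnc: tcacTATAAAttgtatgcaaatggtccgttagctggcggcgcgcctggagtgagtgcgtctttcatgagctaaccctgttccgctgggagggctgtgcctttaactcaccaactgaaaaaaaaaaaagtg
Inhba: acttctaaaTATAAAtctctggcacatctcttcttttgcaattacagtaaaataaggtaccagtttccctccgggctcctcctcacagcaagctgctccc
Arhgap20: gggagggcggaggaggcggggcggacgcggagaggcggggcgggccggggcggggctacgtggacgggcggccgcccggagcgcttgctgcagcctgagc
By its nearest match, the TATAAA of Sprr1a begins 43 bases before the start, that of Inhba 91 and that of Tnc 126. Over the 8 members this distance ran from 31 bases (Crp) to 219 (Arhgdib), and whether any works as a TATA box was not tested. Arhgap20, with no TATAAA, has a window rich in G and C, in which GGGCGG was left in lower case. A match describes the letters only and is not a measured binding site.

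Members were then read at 72 h of BMS753, arrays that the choice did not use, although the 4 EtOH arrays enter both. Differences were tested with limma, and a call needed a change of at least 2-fold and a two-sided p under 0.05 after Benjamini-Hochberg adjustment over all 19938 genes. Each agent and time has 1 array, so the fit assumes that it varies like the EtOH arrays. Of the 73 members 3 rose (4.11%), where 3.01% of all genes did, and 2 fell (2.74%), where 2.81% of all genes did. Both shares are near those of all genes. The other 68 members were not called.

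The members that rose were Gm32061, Rspo3 and Arhgap20. Rspo3 was 1.42 ± 0.12 (SE) higher on the log2 scale, or 2.67-fold (limma, adjusted p = 1.99e-07), and Arhgap20 1.41 ± 0.10, or 2.66-fold (adjusted p = 4.33e-08). Gm32061 had 4.16, 4.20, 4.25, 4.20 and 6.40 over the ATRA times and 4.18, 4.26, 4.18, 5.26 and 7.34 over the BMS753 times, against 4.34, 4.12, 4.18 and 4.26 in EtOH. At 72 h of BMS753 it was 3.11 ± 0.09 higher, or 8.65-fold (adjusted p = 2.58e-12), and it is named here because of its values. RefSeq annotates Gm32061 as a long noncoding RNA whose span holds the imprinted genes Ndn, Magel2 and Mkrn3, so signal from overlapping transcripts may be shared.

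The members that fell with BMS753 were Shisa3, by 1.65 ± 0.08 (adjusted p = 7.64e-10), and Fgf5, by 1.18 ± 0.09 on the log2 scale (adjusted p = 5.73e-08, limma). Relative to EtOH these genes stood 3.94-fold and 3.40-fold higher at 72 h of ATRA. At 72 h of BMS753 they stood at 0.318 and 0.442 of the EtOH level.

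A smaller change was common among the members. With the adjusted p alone and no fold threshold, 31 members were higher at 72 h of BMS753 (42.5%), where 17.9% of all genes were, and 8 were lower, where 17.7% were. The median difference was 0.17 in the members and -0.01 over all genes. The BMS753 array was above all 4 EtOH arrays in 43 members (58.9%), against 33.2% of all genes, and below all of them in 15 (20.5%), against 34.4%. The difference was within 0.5 in 56 members. Most of all genes were within 0.5 too, with quartiles of -0.14 and 0.13, so this is not particular to the members.

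Clstn2 was just under the 2-fold limit, at 0.997 ± 0.102 (adjusted p = 2.18e-06), and it passed the limit under other scalings and without EtOH array 2 or 3. Next came Dpf3 (0.85 ± 0.10), Snai2 (0.83 ± 0.13), Masp1 (0.83 ± 0.11), Nkain3 (0.83 ± 0.12), Phxr4 (0.81 ± 0.11), Hoxc9 (0.77 ± 0.09) and Elavl4 (0.76 ± 0.09). All of these had an adjusted p of 0.00015 or less by limma but were under 2-fold. By role, the adjusted p alone gave 7 higher and 0 lower of the 14 transcription factors and cofactors. It gave 4 higher and 0 lower of the 9 adhesion genes, and 4 higher and 1 lower of the 8 neuron and granule genes. Secreted ligands and their binding proteins had 2 higher and 5 lower of 9, and receptors 2 and 1 of 7. Those 5 include Shisa3, whose family acts on receptors. Matrix genes had 3 higher of 4, actin and contractile genes 4 higher and 1 lower of 9, enzymes and plasma proteins 1 higher of 6, and members with no role 4 higher of 7. The roles were assigned with the values known.

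On the lower side, below the fold limit, were Cpe at -0.49 ± 0.07 (limma, adjusted p = 9.96e-05), Edn1 at -0.37 ± 0.09 (0.00536), Igfbp3 at -0.37 ± 0.08 (0.00169) and Npr3 at -0.32 ± 0.09 (0.0142). Igfbp7 was at -0.30 ± 0.10 and Cnn1 at -0.25 ± 0.09 (adjusted p = 0.023 and 0.0437). Scg3 at -0.25 ± 0.10 and Vsnl1 at -0.17 ± 0.12 had adjusted p of 0.0591 and 0.329.

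Several members with the highest ATRA values had BMS753 values near those of EtOH. The 95% interval of the BMS753 72 h difference was -0.07 to 0.34 for Nfia, -0.15 to 0.26 for Zbtb7c, -0.18 to 0.24 for Inhba and -0.37 to 0.08 for Sprr1a. For Slitrk4 it was -0.06 to 0.36 and for Cpa6 0.02 to 0.35 (adjusted p = 0.273 and 0.0732, limma). A missed threshold does not show that these genes were level with EtOH. Tnc and Postn were 0.47 ± 0.12 and 0.33 ± 0.10 higher with BMS753 (adjusted p = 0.00619 and 0.0143), without reaching 2-fold. The list members Ncam1 (0.30 ± 0.07), Gria2 (0.28 ± 0.07) and Robo3 (0.27 ± 0.09) were also under 2-fold, and Tcf21 (-0.01 ± 0.11) and Prdm8 (0.00 ± 0.10) had adjusted p of 0.963 and 0.993.

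As a description, the BMS753 72 h difference was set beside the ATRA 72 h difference of the same gene. Its median was 8.0% of the ATRA log2 difference in the members. In the 518 genes that had reached the first threshold after an earlier rise with ATRA, it was 56.0%, with a median BMS753 difference of 1.24. In 58 members it was under 25% of the ATRA value and in 4 at least 50%. The choice asked for a high ATRA 72 h array, and both agents share the EtOH arrays, so these percentages have no test.

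**Figure D3:**
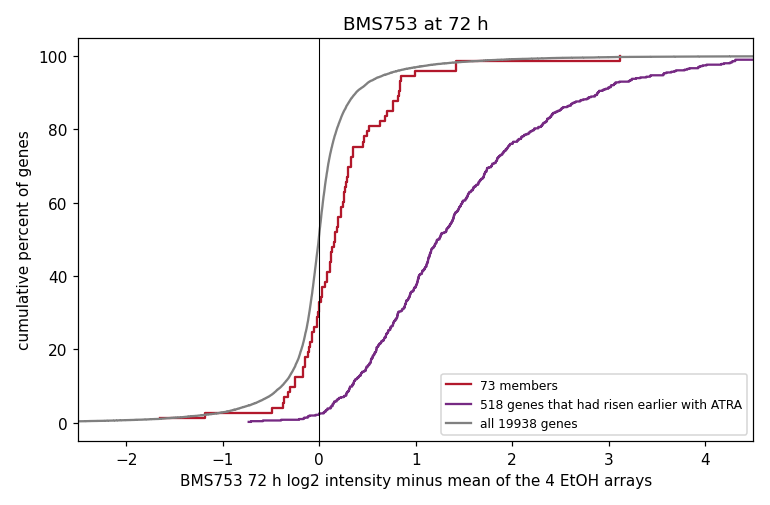
The horizontal axis is the log2 intensity at 72 h of BMS753 minus the mean of the 4 EtOH arrays and the vertical axis the cumulative percent of genes, for the 73 members (red), the 518 genes that had risen earlier with ATRA (purple) and all 19938 genes (grey), with values beyond the axis not drawn. The members' curve crosses 50% at 0.17, close to the grey curve at -0.01, and the purple curve does so at 1.24.

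The shape of the rule, 72 h against all earlier times, was next tested within BMS753, with no EtOH level in the contrast. Of the 73 members 4 rose and 1 fell at 72 h against the mean of 2, 6, 24 and 48 h, where 2.09% and 2.29% of all genes did. Those that rose were Gm32061 (2.87 ± 0.09, limma, adjusted p = 9.49e-12), Rspo3 (1.30 ± 0.12, adjusted p = 6.69e-07), Arhgap20 (1.22 ± 0.10, adjusted p = 2.96e-07) and Snai2 (1.05 ± 0.13, adjusted p = 2.14e-05). Shisa3 fell by 1.498 ± 0.081 on the log2 scale (adjusted p = 3.44e-09). With the adjusted p alone 30 members were higher (41.1%) and 5 lower (6.85%), where 14.3% and 16.9% of all genes were. The median member stood 0.18 above its earlier BMS753 level, against -0.03 over all genes. Edn1 was 0.49 ± 0.09 higher at 72 h than before (adjusted p = 0.00086), and all 4 of its earlier BMS753 arrays (6.72, 6.44, 6.11 and 6.16) were below every EtOH array, the lowest of which had 7.16. The spread in this fit is that of the EtOH arrays, and with the spread of the 4 earlier BMS753 arrays in its place Snai2 alone was called.

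Some members moved before 72 h of BMS753. At 48 h 3 members rose (4.11%), where 1.77% of all genes did, and 2 fell (2.74%), where 1.36% did. Rspo3 (1.19 ± 0.12), Arhgap20 (1.12 ± 0.10) and Gm32061 (1.03 ± 0.09) rose, with adjusted p of 2.21e-06, 9.4e-07 and 5.59e-07 by limma. Without the second EtOH array Gm32061 was at 0.9985, under the limit. Edn1 fell by 1.05 ± 0.09 and Npr3 fell by 1.04 ± 0.09 (adjusted p = 7.64e-07 and 9.98e-07). Tnc, at 0.90 ± 0.12 (adjusted p = 4.47e-05), was under 2-fold and stood higher at 48 h than at 72 h. At 48 h the BMS753 array was above all EtOH arrays in 26 members (35.6%, against 31.8% of all genes). It was below all of them in 30 members (41.1%, against 29.6% of all genes). The genes that rose with BMS753 at 48 h had ATRA 48 h values within 0.2 of EtOH, at 0.11 for Rspo3, -0.02 for Arhgap20 and -0.03 for Gm32061. The rule held every member under 0.5 at 48 h of ATRA. The lack of a rise with ATRA at that time therefore follows from the choice and carries no test.

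At 24 h of BMS753 0 members were called higher, where 0.451% of all genes were, and 1 fell, where 0.0401% did. That was Edn1, which fell by 1.105 ± 0.092 (limma, adjusted p = 2.84e-06). In either direction 14 members (19.2%) had an unadjusted p under 0.05, where 15.7% of all genes did. With the adjusted p alone 2 were higher (2.74%) and 7 lower (9.59%), where 3.69% and 1.9% of all genes were. Npr3 was at -0.61 ± 0.09 and Masp1 at -0.48 ± 0.11, and both were also low at 24 h of ATRA (-0.81 and -0.73). With the 24, 48 and 72 h arrays pooled as 3 against 4, 1 member was called higher and 0 lower, where 1.19% and 0.873% of all genes were. It was Gm32061, at 1.36 ± 0.41 (adjusted p = 0.0367), a call that was lost when any 1 EtOH array was left out (adjusted p = 0.0643 to 0.0801). With the adjusted p alone 2 members were higher, Gm32061 and Phxr4, and 0 lower, where 6.52% and 6.94% of all genes were. The spread of this pooled fit includes the late ATRA arrays, which the rule set apart from each other in every member. For Nfia the SE was 0.51 here, against 0.10 at 24 h of BMS753 alone. The choice thus widens the members' error, and their few calls cannot be set against the shares of all genes.

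**Figure D4:**
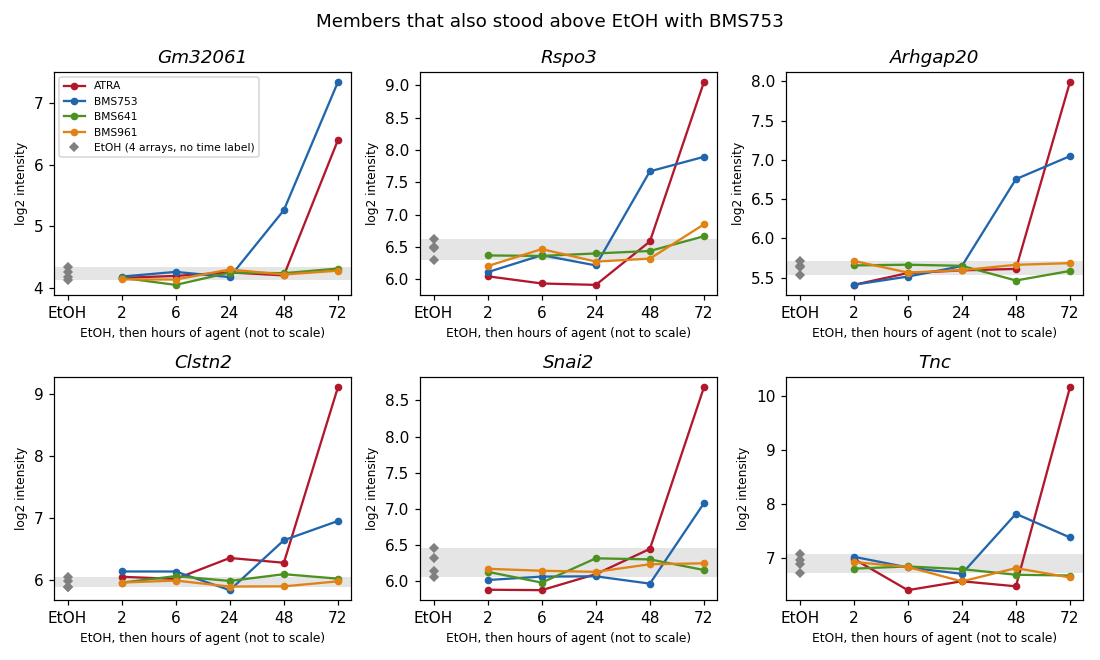
Each panel shows the log2 intensity of 1 member in the EtOH arrays (grey diamonds, with their range as a band) and at 2, 6, 24, 48 and 72 h of ATRA (red), BMS753 (blue), BMS641 (green) and BMS961 (orange), 1 array each, with times not to scale. Gm32061, Rspo3 and Arhgap20 stand above the band at 48 h of BMS753 and at 72 h of ATRA, and Tnc is higher at 48 h than at 72 h of BMS753.

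**Figure D5:**
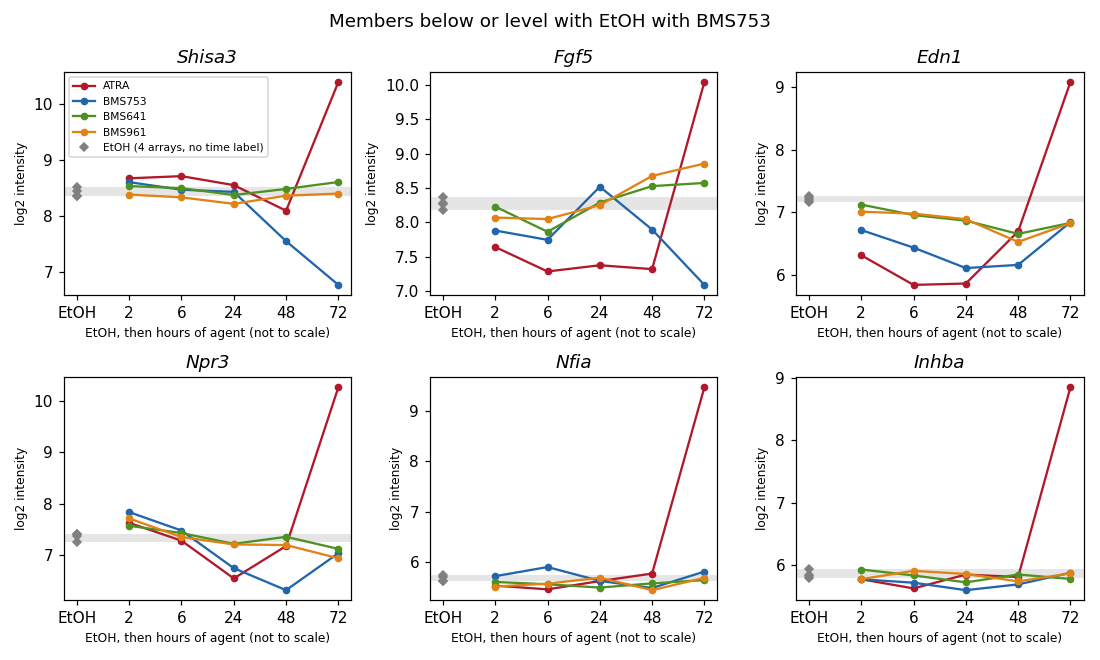
The same axes for members that were below EtOH, or level with it, with BMS753. Shisa3 and Fgf5 end at 72 h as the highest point with ATRA and the lowest with BMS753 (10.40 and 6.76, 10.04 and 7.09), and Edn1 and Npr3 dip before 72 h with both agents.

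In 8 members there was an ATRA array at least 0.5 below EtOH before 72 h, namely Edn1, Fgf5, Npr3, S1pr3, Masp1, Igfbp3, Rspo3 and Tnc. The share of all genes at this limit was not counted, so whether such low values are particular to the members was not tested. Falls were also found outside the members, as 137 of all genes were at least 1 below EtOH at 24 h of ATRA and 608 at 48 h. The difference of Edn1 was -1.37 at 6 h and -1.35 at 24 h, and that of Fgf5 was between -0.63 and -0.98 at all 4 earlier times. Igfbp3 was at -0.59 at 48 h of ATRA and 1.73 at 72 h. The rule limited only how high the earlier values could be, so these low values are not part of the choice, but they share the EtOH arrays with it and were picked for their size. The plots of Edn1 and Npr3 by time show the low values with BMS753 as well. Edn1 was below every EtOH array in all treated arrays other than ATRA 72 h, those of BMS641 and BMS961 included. At 48 h its difference was -0.56 with BMS641 and -0.69 with BMS961. So its low values were not particular to the 1 µM agents.

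At 72 h of BMS641 and BMS961, each at 0.1 µM, the members lay within 0.5 of EtOH, except for 2 with BMS961. Most of all genes did too, with quartiles of -0.06 and 0.06 with BMS641 and -0.06 and 0.07 with BMS961. With BMS641 0 members were called (limma), where 0.015% of all genes were higher and 0.0% lower, and all 73 lay within 0.5 of EtOH. Here 6 members (8.22%) had an unadjusted p under 0.05, where 6.28% of all genes did. With the adjusted p alone 0 members passed, where 0.246% of all genes were higher and 0.0853% lower. With BMS961 0 members were called, where 0.0401% of all genes were higher and 0.0% lower, and 71 lay within 0.5. But 16 members (21.9%) had an unadjusted p under 0.05, where 9.92% of all genes did. With the adjusted p alone 0.777% of all genes were higher and 0.567% lower. Of the members 2 were higher (2.74%), Fgf5 at 0.58 ± 0.09 (adjusted p = 0.00314) and Phxr4 at 0.62 ± 0.11 (adjusted p = 0.0135). Lower were 2 (2.74%), Esyt1 at -0.40 ± 0.08 and Npr3 at -0.42 ± 0.09 (adjusted p = 0.0234 and 0.0439). Fgf5 had 8.57 at 72 h of BMS641 and 8.86 at 72 h of BMS961, against 10.04 with ATRA, 7.09 with BMS753 and 8.17 to 8.38 in EtOH. The BMS641 array was above all EtOH arrays in 17 members (23.3%) and below them in 19 (26.0%), where 20.3% and 21.4% of all genes were. The BMS961 array was above them in 18 (24.7%) and below in 22 (30.1%), where 24.0% and 20.8% of all genes were. Dose and receptor differ together between these agents and the 1 µM agents.

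The members were set against 19 gene lists with 640 measured genes, and 17 of the 73 were in a list. The list of mesenchymal matrix genes held 4 (Tnc, Postn, Igfbp3 and Igfbp7), signalling ligands and antagonists 3 (Inhba, Rspo3 and Edn1), and axon guidance and adhesion 2 (Robo3 and Ncam1). The lists of Hox genes (Hoxc9), neuron cytoskeleton (Elavl4), neuron transcription factors (Prdm8), synapse (Gria2), contractile genes (Cnn1), mesoderm and cardiac factors (Tcf21), neural crest (Snai2) and pluripotency (Fgf5) held 1 each. The retinoid pathway, endoderm, glia, endothelium and blood, trophoblast, cell cycle, p53 and interferon lists held 0. So 56 members, among them Nfia, Cpa6, Clstn2 and Zbtb7c, belong to none of these lists.

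The genes of those lists that are not members were counted apart from them, and read against 5.33% of all genes called higher and 4.26% lower at 72 h of ATRA. At 72 h of BMS753 3.01% of all genes were higher and 2.81% lower, so fewer calls with BMS753 than with ATRA is also what all genes gave. Of the other 49 matrix genes 20 were higher and 0 lower at 72 h of ATRA, and 10 and 1 at 72 h of BMS753, with median differences of 0.73 and 0.18. Of the other 30 mesoderm and cardiac factors 12 were higher and 1 lower with ATRA, and 3 and 1 with BMS753 (medians 0.55 and 0.03). Of the other 37 contractile genes 12 and 2 were called with ATRA and 4 and 2 with BMS753. Of the other 36 neuron transcription factors 12 and 1 were called with ATRA and 3 and 2 with BMS753.

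The medians of 2 neuronal lists had opposite signs with the 2 agents. Of the other 29 neuron cytoskeleton genes 8 were higher and 0 lower with ATRA, and 4 and 4 with BMS753 (medians 0.25 and -0.25). Of the other 34 synapse genes 4 and 1 were called with ATRA and 2 and 2 with BMS753 (medians 0.16 and -0.11). Of the other 27 neural crest genes 10 and 2 were called with ATRA and 12 and 2 with BMS753 (medians 0.54 and 0.96). Of the other 45 axon guidance and adhesion genes 24 and 1 were called with ATRA and 21 and 3 with BMS753, and of the other 70 ligands and antagonists 15 and 3, and 19 and 3. Of the other 36 Hox genes 21 were higher with ATRA and 16 with BMS753, with 0 lower in both. Of the other 34 pluripotency genes 2 were higher and 16 lower with ATRA, and 2 and 13 with BMS753, while the member Fgf5 was higher with ATRA and lower with BMS753. No difference between the agents over a list was tested.

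Among the lists that held no member, the retinoid pathway had 7 higher and 2 lower of 25 with ATRA and 11 and 2 with BMS753. Endoderm genes had 13 and 3 of 44 with ATRA and 6 and 3 with BMS753. Glial genes had 1 and 1 of 23 with ATRA and 2 and 2 with BMS753, endothelial and blood genes 2 and 2 of 25, and 0 and 1, and trophoblast genes 2 and 2 of 13, and 2 and 2. Cell cycle genes had 2 and 0 of 32, and 1 and 0, p53 and apoptosis genes 5 and 2 of 23, and 4 and 1, and interferon genes 1 and 0 of 23, and 0 and 1. Without its members the matrix list averaged 8.19 at 72 h of ATRA and 7.56 at 72 h of BMS753, against 7.01 to 7.10 in the EtOH arrays. Of the 53 measured matrix genes 10 were already at least 1 above EtOH at 48 h of ATRA. The rule held members under 0.5 there, so these 10 could not be members. Their different course over time follows from the choice and carries no test. The contractile list without its member averaged 7.78 and 7.20, against 7.13 to 7.17. The endothelial and blood list stayed at 6.09 and 6.05, against 6.03 to 6.12. The part of other cell types in the members' values was not tested.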

How the data were processed

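Gene expression was measured in P19 cells on 24 arrays. Each deposited value is a log2 intensity of a probe set, which the authors obtained from Affymetrix Expression Console 1.1, per the submitters' processing notes. The background correction and normalization are not given in the sources used here, and the log2 scale was inferred from the range of 2.86 to 14.3. Of 35556 probe sets 21789 had 1 gene symbol in the table of probe genes, 1621 had several and 12146 were not named. For 999 genes with several probe sets the one with the highest mean was kept, which left 19938 genes, with no filter on low signal.

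Groups came from the labels. The R package limma 3.58.1 (R 4.3.3; lmFit, eBayes with trend=TRUE) fitted a mean for EtOH and for each of the 20 combinations of agent and time, so the residual is the spread of the 4 EtOH arrays. The comparison of 24 to 72 h used means per agent early (2 and 6 h) and late, with shared terms for time. Its spread includes treated arrays, among them the ATRA arrays that chose the members. Errors are SE of the fit. The fits were run on simulated data in which every array, treated ones included, had the spread of the EtOH arrays. That run could not check whether a lone treated array varies like them. The number of arrays limits the precision.

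The members, lists, roles and tests were chosen with earlier results of these data known. Genes named are the 10 members highest at 72 h of ATRA, the 10 highest and 10 lowest at 72 h of BMS753, members in a list, and 3 genes on each side of a threshold, with predicted transcripts passed over in ranking. Gm32061 and other members were named with their values known. Alternatives were another quantile normalization, median scaling, the mean of probe sets, robust moderation, no fold threshold, leaving out the dimmest 33.3% of genes, single EtOH arrays or times, other thresholds of the rule and other estimates of the spread.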

Additional observations from a re-analysis of the deposited data

Results flagged for a closer look

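In 2 of the 73 members 1 EtOH array lay apart from the other EtOH arrays by Dixon's test at its 95% critical value, where chance gives about 1 in 20. Nfic had 7.172 in the second EtOH array, against 6.83 to 6.88 in the others. Fosl2 had 6.781 in the third, against 6.92 to 6.94 in the others.

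In 5 members the 72 h array of BMS753 differed from the mean of its earlier arrays by at least 2-fold, in arrays that did not choose the members. Of these 4 were higher and 1 lower, where 2.09% of all genes were called higher and 2.29% lower. The log2 differences were 2.871 for Gm32061, 1.3011 for Rspo3, 1.2167 for Arhgap20, 1.05 for Snai2 and -1.4978 for Shisa3. With the spread of the 4 earlier BMS753 arrays in place of that of the EtOH arrays, Snai2 alone was called.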

How the results depend on the processing

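No paired analysis was possible because only the EtOH arrays carry replicate numbers. The number of members, 73, became 224 and 30 with a 72 h threshold of 1 and 2, 121 and 42 with an earlier limit of 0.7 and 0.3, and 42 without the 33.3% of genes with the lowest means; quantile normalization gave 67 (63 shared), median scaling 60 (all shared), the mean of probe sets 74 (72 shared), and leaving out 1 EtOH array 69 to 75. Among the members named by rank or list and Gm32061, no called value of a BMS753 comparison changed direction under any alternative run. Other genes, and the BMS641 and BMS961 comparisons, were not checked for this. Member medians near 0 changed sign: at 48 h of BMS753 0.02 became -0.10 without those dimmest genes, -0.008 with quantile normalization and -0.02 without EtOH array 2, over 24 to 72 h 0.03 became -0.009 without the 72 h arrays, and with BMS961 0.01 became -0.007 with quantile normalization and -0.001 without EtOH array 2. With the adjusted p alone, calls over all genes became 7088 at 72 h of BMS753 (31 members higher, 8 lower), 6217 against its earlier arrays (30 and 5), 4865 at 48 h (9 and 12), 1114 at 24 h (2 and 7), 2683 over 24 to 72 h (2 higher), 66 with BMS641 and 268 with BMS961 (2 and 2). Without those dimmest genes 42 members were tested, of which 1 was called higher at 72 h, 1 at 48 h, 2 against the earlier arrays and 0 over 24 to 72 h, where 3.82%, 2.37%, 2.57% and 1.64% of all genes were. With the spread of the BMS753 arrays alone, 70 genes were called against the earlier arrays, with 1 member higher and 0 lower, and without the BMS753 6 h array 2 members (Shisa3 and Fgf5) were lower. Over 24 to 72 h, members called higher became 0 with no time term, with robust moderation, and without any 1 EtOH array. The spread of that comparison includes the ATRA arrays that chose the members, which limits their calls. Without the 24 h arrays 831 genes were called there (3 members higher, 1 lower), without the 48 h arrays 222 (0 higher) and without the 72 h arrays 218 (0 higher, 1 lower, Edn1). Clstn2 passed 2-fold at 72 h of BMS753 with quantile normalization (1.02), median scaling (1.04) and without EtOH array 2 or 3 (1.03 and 1.01). Every single-time comparison takes its spread from 4 EtOH arrays and assumes that a lone treated array varies like them, and the ATRA 72 h array has no repeat, so a feature of that array cannot be told apart from the effect of 72 h of ATRA.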

Other observations

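Among the members, 1 pair are neighbours in the RefSeq annotation, Prdm8 and Fgf5, with 0 protein-coding genes between them. At 72 h of BMS753 Prdm8 differed from EtOH by 0.00 ± 0.10 and Fgf5 fell by 1.18 ± 0.09 on the log2 scale (limma), while both were members by their ATRA 72 h values.

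The imprinted genes around Gm32061 gave differing values. Inside its annotated span Ndn, a growth suppressor of neurons, was 1.00 above EtOH at 72 h of ATRA and rose by 1.195 ± 0.060 at 72 h of BMS753 (limma, adjusted p = 1.08e-09). Magel2 was at -1.71 with ATRA and -0.12 ± 0.07 with BMS753 (adjusted p = 0.199). Mkrn3 was at 0.11 with ATRA and 0.82 ± 0.10 with BMS753 (adjusted p = 8.4e-06, under 2-fold). Peg12, next to the span, was at 0.52 with ATRA and rose by 1.57 ± 0.09 with BMS753 (adjusted p = 4.02e-09). These genes were looked at because of the value of Gm32061.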
